A study of Homo sapiens with 16 samples.

Results

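The genes described here are 10 genes of the actin cytoskeleton, out of 60107 genes counted, followed across 16 libraries of cytoplasmic RNA. They are the cytoplasmic actins ACTB and ACTG1, the actin monomer and turnover proteins PFN1, CFL1, TMSB10 and TMSB4X, the filament-associated TPM1, TAGLN2 and MYL6, and SRF, a transcription factor that acts on many actin genes. They were chosen by name, with earlier results of these same libraries known, and ACTB was picked because its count was lower in induced cells. The comparison of induced with uninduced cells is therefore given for these genes as a description without a test.

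All cells were U2OS-TR, human osteosarcoma cells that make the tetracycline repressor. In 10 libraries the line also held a transgene for ΔN-RNMT, an inactive form of the cap methyltransferase RNMT that stays in the cytoplasm, under a CMV promoter with tetracycline operators. Of these, 5 were uninduced (Control) and 5 were induced with doxycycline (Induced), and this line was a single clone. The other 6 came from parental cells without the transgene, 3 without doxycycline (No Dox) and 3 with it (With Dox). Doxycycline was used at 1 μg/ml, added 48 h after the cells were split and left for 24 h. By the study's methods the treated cells alone received it, while the protocol text of every library names it. The study asked which cytoplasmic mRNAs change in level when cap methylation in the cytoplasm is blocked, and the parental cells show what doxycycline does alone.

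Actin monomers join into filaments and leave them again in a constant cycle. Profilin feeds monomers to growing ends, cofilin severs and disassembles old filaments, and beta-thymosins hold a reserve of free monomers. Tropomyosin and transgelin bind along filaments, and myosin II pulls on them. SRF binds a DNA element called the CArG box together with MRTF cofactors, which are themselves held by free actin monomers. ACTB mRNA is also a common loading control.

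Libraries of the transgene line held between 12527183 and 23251834 tags counted on genes, and parental libraries between 1473286 and 3214808. Levels are given as CPM, a gene's counts per mega-count after TMM scaling within each line. RNMT, the gene of the transgene, ranged from 55.5 to 112 CPM in Control and from 265 to 457 CPM in Induced, with a log2 fold change of 2.22 ± 0.23 (SE, n = 5 per group, edgeR quasi-likelihood adjusted p = 0.00806). In the parental line its log2 fold change was -0.42 ± 0.39 (n = 3 per group, edgeR adjusted p = 0.997). Tags on RNMT were not assigned to the transgene or to the cells' own gene. Of 9 markers of bone and mesenchyme, COL1A1, SPARC, VIM and RUNX2 were above 1 CPM in Control, while BGLAP and SP7 had no counts in any library and COL1A2 had 2. The 8 markers of other cell types summed to between 6.42 and 17.7 CPM, most of it EPCAM in the transgene line, and ALB had no counts. In such bulk RNA, fewer cells with a transcript and less of it per cell cannot be told apart. Control replicate 5 stood apart from the other Control libraries, and its values are given for the 10 genes. Its RNMT level, 112 CPM, was the highest of the Control libraries and below all Induced ones.

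The method counts the 3′ end of each polyadenylated RNA, so a gene's count rests on a short stretch at that end. The last 30 bases of the canonical transcripts are shown for the actin and beta-thymosin pairs, whose members have close relatives, and for PFN1, with the AATAAA polyadenylation signal in capitals. They are read from GRCh38 in the sense of the gene, and each lies in the last exon within the 3′ untranslated region. The tags' own positions were not used here.
ACTB (chromosome 7, 5527148 to 5527177, minus strand): gttgAATAAAagtgcacaccttaaaaatga
ACTG1 (chromosome 17, 81509971 to 81510000, minus strand): aaggaaaAATAAAagtgctgccgtaaccaa
PFN1 (chromosome 17, 4945652 to 4945681, minus strand): ttttctgAATAAAaaagattctactaacaa
TMSB10 (chromosome 2, 84906642 to 84906671, plus strand): aataatgaaAATAAAacacacctcgtggca
TMSB4X (chromosome X, 12977194 to 12977223, plus strand): tttttaatatgcaAATAAAaagtttaaaaa
Over the last 75 bases, ACTB and ACTG1 shared no run of bases longer than 11, and TMSB4X and TMSB10 none longer than 8. None of the 10 genes had another exact copy of those 75 bases in the genome. TMSB4X had 2 other places with at most 2 mismatches, and the other 9 genes had 0. Tags that align to more than 1 place were left out of the counts, so TMSB4X may keep only part of its tags. The signal lay within the last 30 bases of 9 of the 10 genes, all but CFL1.

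The SRF element was looked for in RefSeq promoters, from 250 bases before to 50 bases after each start in GRCh38.p14. The CArG box, on either strand, was present in 454 of 35116 promoters (1.29%). That share counts promoters and not genes, and SRF and TAGLN2 had more than 1 promoter entry. Of the 9 genes with an entry, ACTG1 held 1 box and SRF held 2 in one entry and 0 in another. They are shown here with the box in capitals and 6 bases on each side.
ACTG1 (chromosome 17, box 81512884 to 81512893, first base at -94): agatcgCCATATATGGacatgt
SRF (chromosome 6, box 43171239 to 43171248, first base at -30): ggctcaCCATATAAGGagcggc
SRF (chromosome 6, box 43171259 to 43171268, first base at -10): gcctcgCCATAAAAGGaaacat
ACTB had no entry in that table. These matches are letters in a window and were not tested as sites.

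Transcripts of both cytoplasmic actins were measured in all 16 libraries, and ACTG1 was above ACTB in every Induced library but in 3 of the 5 Control libraries only. ACTB (chromosome 7, 5526409 to 5563902, minus strand) had 863, 907, 1526, 668 and 435 CPM in Control replicates 1 to 5 and 409, 485, 404, 300 and 242 CPM in Induced replicates 1 to 5. The 4 highest values were all Control, and Control replicate 5, at 435 CPM, lay inside the Induced range, so the groups overlapped. ACTB's log2 fold change was -1.26 ± 0.31 (SE, n = 5 per group), and without Control replicate 5 it was -1.44 ± 0.25. Leaving out any single library kept it between -1.44 and -0.99, the latter without Control replicate 3. It was -0.84 with offsets for GC content (GC offsets). With 1 surrogate variable in the model, an axis of variation estimated from the libraries themselves, it was -0.51.

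ACTG1, the other non-muscle actin (chromosome 17, 81509413 to 81523847, minus strand), had 875, 724, 742, 1130 and 3330 CPM in Control replicates 1 to 5 and 2191, 1792, 2723, 2032 and 2350 CPM in Induced replicates 1 to 5. The first 4 Control libraries were below every Induced one, and Control replicate 5 was above every Induced one. Its log2 fold change was 0.71 ± 0.40, and 1.34 ± 0.19 without Control replicate 5. It lay between 0.55 and 1.34 with any single library left out, and was 0.12 with 1 surrogate variable. The counts of ACTG1 per count of ACTB were 1.01, 0.798, 0.486, 1.69 and 7.65 in Control replicates 1 to 5 and 5.36, 3.70, 6.75, 6.77 and 9.71 in Induced replicates 1 to 5. One library of the uninduced cells therefore had a ratio above 4 of the 5 Induced libraries. The ratio is within a library and does not depend on scaling.

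**Figure D1:**
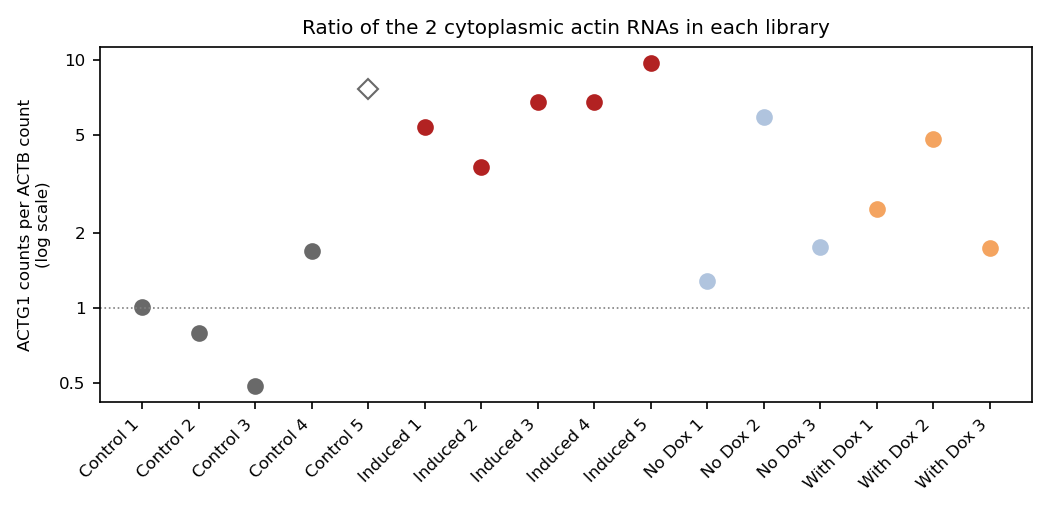
ACTG1 tag counts per ACTB tag count in each of the 16 libraries, on a log axis, with Control replicate 5 as an open diamond. Control replicates 1 to 4 sit between 0.486 and 1.69, Induced replicates between 3.70 and 9.71, and Control replicate 5 at 7.65.

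In parental cells doxycycline moved neither actin beyond the spread between libraries. ACTB had 1158, 591 and 918 CPM in No Dox replicates 1 to 3 and 911, 626 and 1115 CPM in With Dox replicates 1 to 3, a log2 fold change of -0.01 ± 0.44 (n = 3 per group, edgeR adjusted p = 0.998). ACTG1 had 1490, 3475 and 1613 CPM without and 2287, 3008 and 1949 CPM with doxycycline, a log2 fold change of 0.14 ± 0.49 (n = 3 per group, edgeR adjusted p = 0.997). The ratio of ACTG1 to ACTB counts was 1.29, 5.88 and 1.76 without and 2.51, 4.81 and 1.75 with doxycycline, and each treatment held 1 library at 4.81 or above beside 2 at 2.51 or below. The difference in means did not pass an exact two-sided permutation test over 20 splits (p = 1, where 3 against 3 cannot go below 0.1).

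**Figure D2:**
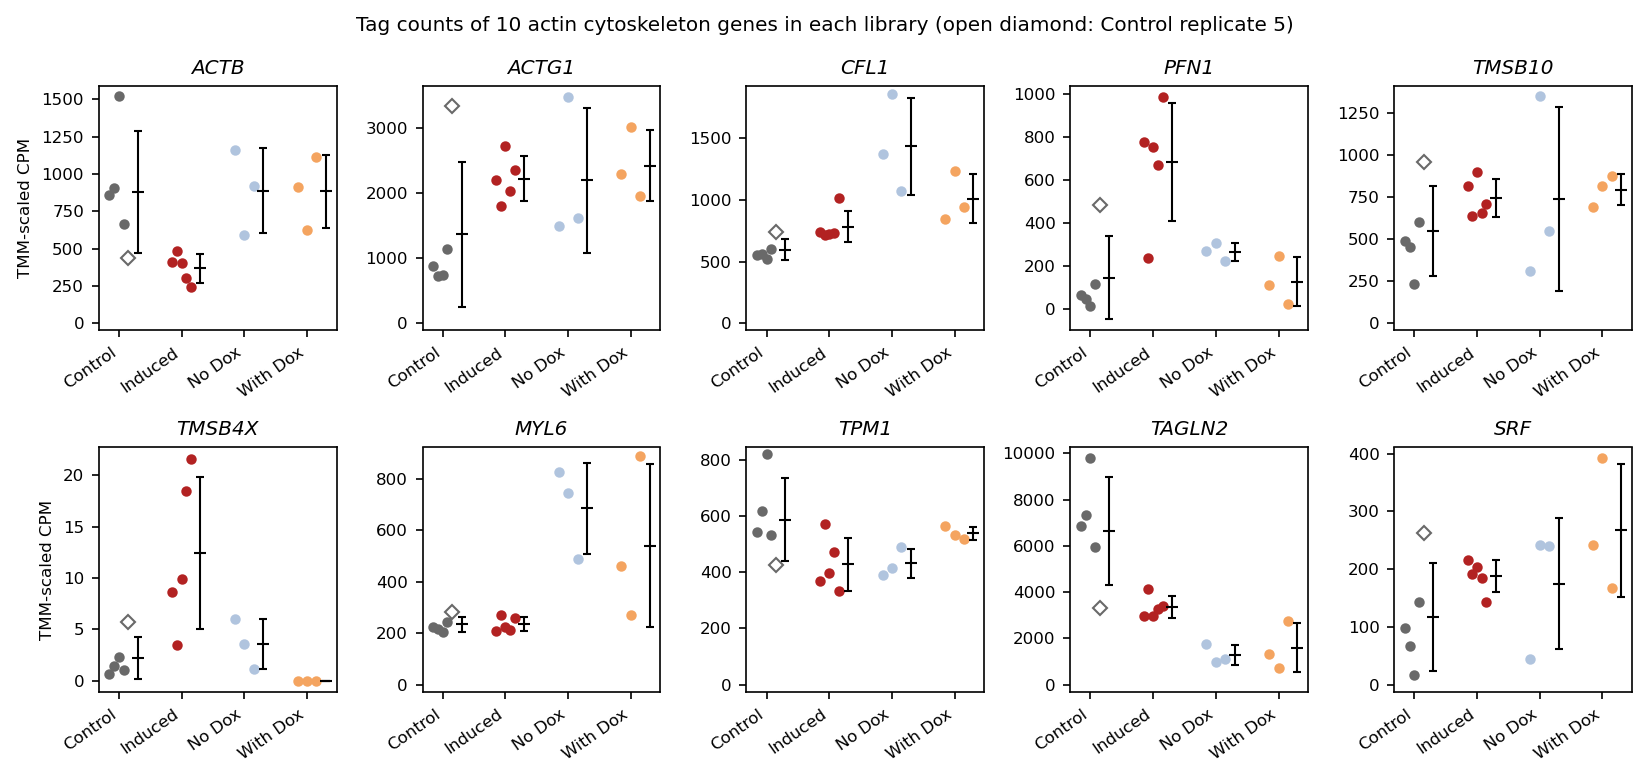
TMM-scaled CPM of the 10 genes in each library, 1 panel per gene with a linear axis that takes in 0. Points are libraries, the open diamond is Control replicate 5, and bars are mean ± SD (n = 5 or 3). That library lies outside the other 4 Control libraries for all 10 genes, a count that was not made over all genes.

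Among the proteins that handle actin monomers, PFN1 and TMSB4X had the largest fold changes of the 10 genes. PFN1, the gene of profilin (chromosome 17, 4945652 to 4949061, minus strand), had 67.4, 48.1, 14.6, 116 and 484 CPM in Control replicates 1 to 5. In Induced replicates 1 to 5 it had 778, 240, 752, 669 and 984 CPM. Control libraries differed by up to 33.2-fold among themselves, and Control replicate 5 was above Induced replicate 2. For PFN1 the log2 fold change was 2.23 ± 0.76, and 3.46 ± 0.55 without Control replicate 5. With any single library left out it lay between 1.94 and 3.46, and with 1 surrogate variable it was 1.13. In parental cells PFN1 had 268, 307 and 224 CPM without and 114, 247 and 23.8 CPM with doxycycline, and the log2 fold change of -1.04 ± 0.64 did not pass the test (edgeR adjusted p = 0.997).

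TMSB4X, a beta-thymosin (chromosome X, 12975110 to 12977227, plus strand), was the lowest of the 10 genes in every group. It had 13, 24, 42, 21 and 131 raw counts in Control replicates 1 to 5 and 116, 75, 156, 402 and 365 in Induced replicates 1 to 5. That is 0.659 to 5.67 CPM against 3.52 to 21.6 CPM, with only Control replicate 5 above the lowest Induced library. For TMSB4X the log2 fold change was 2.47 ± 0.60, and 3.20 ± 0.52 without that library. With any single library left out it lay between 2.18 and 3.20, and with 1 surrogate variable it was 1.97. In parental cells TMSB4X had 10, 6 and 4 counts without and 0, 0 and 0 counts with doxycycline. Over all libraries of each treatment this was 20 of 6433339 gene counts against 0 of 6898950, at least 7.15-fold lower against a floor of 3 counts over the group. It was below the filter on low counts and was not tested, and floors cover counting error only. The processed pseudogene TMSB4XP4 had 19 counts in Control and 372 in Induced, with 0, 0, 0, 1 and 18 in Control replicates 1 to 5 and 62, 2, 72, 145 and 91 in Induced replicates 1 to 5. It passed the filter on low counts through the Induced libraries alone, so no test is given for it. For each 100 counts of TMSB4X there were 8.23 counts of that pseudogene in Control and 33.4 in Induced. Because the sequences are close, the share of each is uncertain. CFL1P1, a pseudogene of CFL1, had 161 counts in Control and 100 in Induced, and its log2 fold change of -0.54 ± 0.34 did not pass the test (edgeR adjusted p = 0.203).

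TMSB10, the other beta-thymosin (chromosome 2, 84905656 to 84906671, plus strand), had 490, 454, 233, 603 and 955 CPM in Control replicates 1 to 5 and 815, 637, 899, 655 and 706 CPM in Induced replicates 1 to 5. Control replicate 5 was above every Induced library, and the other 4 Control libraries were below every one. The log2 fold change was 0.44 ± 0.30, was 0.72 ± 0.24 without Control replicate 5, and turned to -0.16 with 1 surrogate variable. It lay between 0.24 and 0.72 with any single library left out. CFL1, the gene of cofilin (chromosome 11, 65823022 to 65862026, minus strand), was steadier, at 557, 565, 519, 602 and 741 CPM in Control replicates 1 to 5 and 738, 712, 723, 734 and 1013 CPM in Induced replicates 1 to 5. Its log2 fold change was 0.39 ± 0.16, and 0.47 ± 0.16 without Control replicate 5. It lay between 0.29 and 0.47 with any single library left out, and was 0.23 with 1 surrogate variable. In parental cells neither log2 fold change passed the test. It was 0.11 ± 0.53 for TMSB10 and -0.51 ± 0.42 for CFL1, both with n = 3 per group and an edgeR adjusted p of 0.997. No Dox libraries alone spanned 308 to 1350 CPM of TMSB10.

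**Figure D3:**
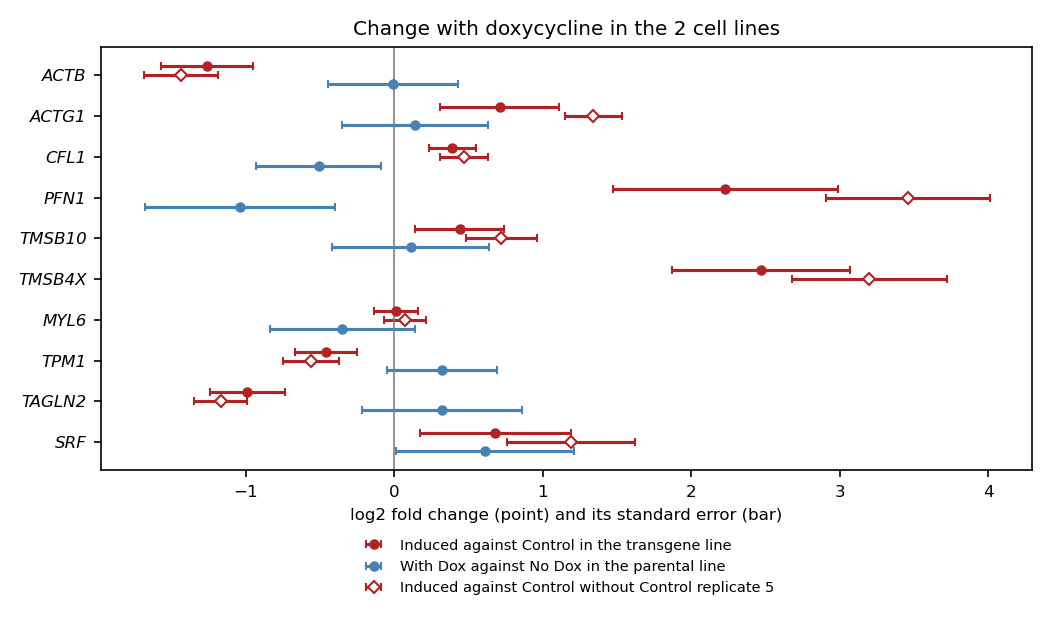
Log2 fold change with its standard error for the 10 genes, in the transgene line with all libraries and without Control replicate 5, and in the parental line. TMSB4X was below the filter in the parental line and has no value there. ACTB (-1.26), TAGLN2 (-0.99) and TPM1 (-0.46) lie left of 0 in the transgene line, and PFN1 (2.23) and TMSB4X (2.47) farthest to the right.

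TAGLN2, a transgelin that binds along filaments (chromosome 1, 159918107 to 159925507, minus strand), had the highest group mean of the 10 in the transgene line. In Control replicate 5 ACTG1 was above it, at 3330 CPM. TAGLN2 had 6866, 7338, 9791, 5932 and 3297 CPM in Control replicates 1 to 5 and 2985, 4129, 2965, 3260 and 3410 CPM in Induced replicates 1 to 5. The 4 highest values were Control, and Control replicate 5 was again within the Induced range. The log2 fold change was -0.99 ± 0.25, and -1.17 ± 0.18 without that library. It lay between -1.17 and -0.83 with any single library left out, and was -0.33 with 1 surrogate variable. In parental cells TAGLN2 was at 1773, 959 and 1123 CPM without and 1319, 736 and 2760 CPM with doxycycline (log2 fold change 0.32 ± 0.54, n = 3 per group, edgeR adjusted p = 0.997).

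TPM1, a tropomyosin (chromosome 15, 63042620 to 63071915, plus strand), had 542, 616, 819, 532 and 425 CPM in Control replicates 1 to 5 and 368, 571, 396, 472 and 333 CPM in Induced replicates 1 to 5. The groups overlapped also without Control replicate 5, since Induced replicate 2 was above 2 of the other Control libraries. The log2 fold change was -0.46 ± 0.21, and -0.56 ± 0.19 without Control replicate 5. It lay between -0.58 and -0.33 with any single library left out, and was -0.03 with 1 surrogate variable. In parental cells every With Dox library, at 563, 533 and 516 CPM, was above every No Dox library, at 392, 414 and 488 CPM. TPM1 was the only 1 of 9 genes tested there whose groups did not overlap, against 9.52% of all genes, and its log2 fold change of 0.32 ± 0.37 did not pass the test (edgeR adjusted p = 0.997).

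MYL6, the essential light chain of non-muscle myosin II (chromosome 12, 56158346 to 56163496, plus strand), had the smallest fold change of the 10 in the transgene line, from 234.7 ± 30.2 CPM in Control to 235.9 ± 27.7 CPM in Induced (SD, n = 5; log2 fold change 0.01 ± 0.15). Control replicate 5 had 282 CPM of MYL6, and without it the log2 fold change was 0.07 ± 0.14. The sign of that value turned under 10 of 19 alternatives. Its gene overlaps MYL6B on the same strand, so tags could be shared between them. In parental cells it ranged from 488 to 827 CPM without and from 270 to 888 CPM with doxycycline (log2 fold change -0.35 ± 0.49, n = 3 per group, edgeR adjusted p = 0.997). SRF (chromosome 6, 43171269 to 43181506, plus strand) had 97.4, 67.1, 16.7, 143 and 262 CPM in Control replicates 1 to 5 and 215, 192, 205, 184 and 143 CPM in Induced replicates 1 to 5. Control libraries spanned 15.6-fold for SRF, more than Induced ones. Its log2 fold change was 0.68 ± 0.51, and 1.19 ± 0.43 without Control replicate 5, and it was -0.12 with 1 surrogate variable. With any single library left out that value lay between 0.39 and 1.19. In parental cells it was 43.8, 241 and 240 CPM without and 242, 392 and 167 CPM with doxycycline (log2 fold change 0.61 ± 0.60, n = 3 per group, edgeR adjusted p = 0.997).

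Counted together, Control and Induced libraries did not overlap for 0 of the 10 genes, against 7.3% of all 13038 genes tested. Without Control replicate 5 they did not overlap for 8 of the 10, all but MYL6 and TPM1, against 45.7% of all genes. Nothing is read from these counts, because the genes were chosen with this comparison known. In the parental line 0 of the 9 genes tested passed the test, against 0% of 9124 genes, and 0 of the 9 had an unadjusted p under 0.05, against 2.93%.

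Control replicate 5 lay outside the range of the other 4 Control libraries for 10 of the 10 genes and within the Induced range for 6. Over those other 4 libraries, mean CPM in Induced was 0.371 times the Control mean for ACTB, 0.448 times for TAGLN2 and 0.682 times for TPM1. It was 11.1 times for PFN1, 9.20 times for TMSB4X, 2.56 times for ACTG1, 2.32 times for SRF, 1.67 times for TMSB10, 1.40 times for CFL1 and 1.06 times for MYL6. That library was chosen for this after its values were seen. For each count on a gene it had 0.727 tags that aligned to more than 1 place, within the range of 0.722 to 1.01 over Control libraries. It had the lowest share of mitochondrial counts of the Control libraries, 0.945% against 1.08% to 1.52% in the other 4, and the fewest tags outside genes, 0.0747 per gene count against 0.0792 to 0.101. Its TMM factor, 0.994, was the highest, against 0.846 to 0.949. Their part in these differences was not tested.

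The share of each library on the 10 genes together differed by less than its SD, while its make-up differed. The 10 genes took 1.02% ± 0.0899 of gene counts in Control and 0.979% ± 0.0631 in Induced (SD, n = 5). TAGLN2 made up 58.9% ± 15.4 of their counts in Control and 37.2% ± 5.29 in Induced. The other 9 genes together went from 0.417% ± 0.153 to 0.616% ± 0.0756 of gene counts, and ACTB with ACTG1 went from 0.209% ± 0.0939 to 0.281% ± 0.0377. Control replicate 5, with 32.3% of the 10 genes' counts on TAGLN2, lay within the Induced range of 31.9% to 45.7%. In parental cells the share was 0.848% ± 0.156 without and 0.778% ± 0.0559 with doxycycline (n = 3, exact two-sided permutation test, p = 0.7, smallest possible 0.1). These shares use all gene counts as the base. With TMM-scaled library sizes the difference in the transgene line was -0.211 percentage points.

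**Figure D4:**
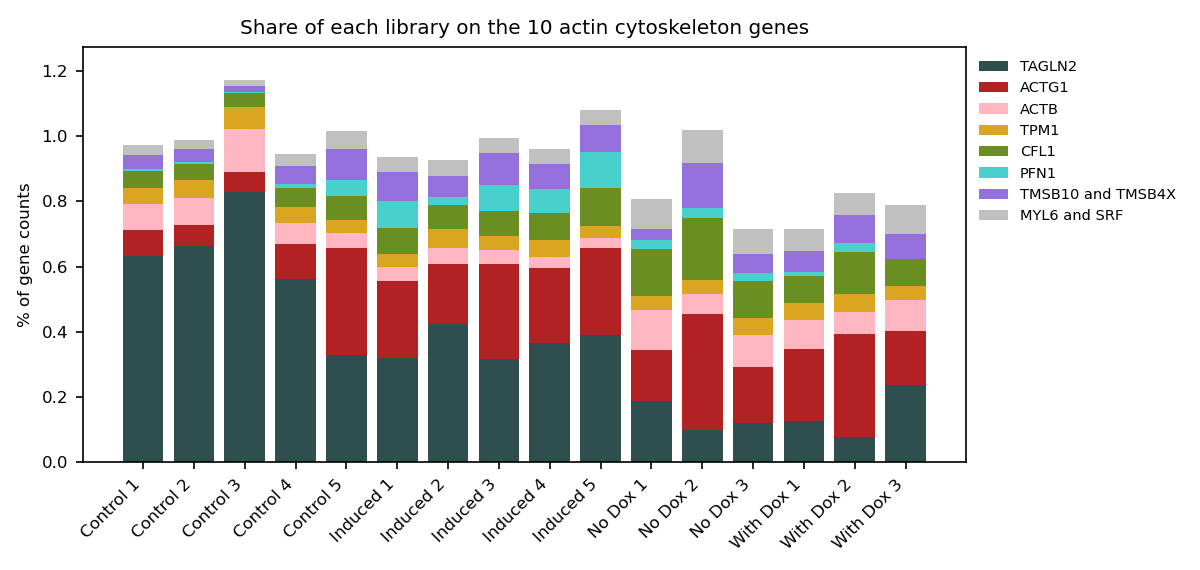
Share of each library's gene counts on the 10 genes, in percent, stacked by gene. The bars reach about the same height in Control and Induced libraries, while the TAGLN2 part is larger in Control replicates 1 to 4 (mean 58.9% of the stack over all 5) than in Induced ones (37.2%).

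The order of the 10 genes by mean CPM, in which each RNA gives 1 tag at its 3′ end whatever its length, was TAGLN2, ACTG1, ACTB, CFL1, TPM1, TMSB10, MYL6, PFN1, SRF and TMSB4X in Control. In Induced it was TAGLN2, ACTG1, CFL1, TMSB10, PFN1, TPM1, ACTB, MYL6, SRF and TMSB4X. Of neighbours in this order, only SRF and TMSB4X did not overlap over the Control libraries. In Induced, TAGLN2 was clear of ACTG1, ACTG1 of CFL1 and SRF of TMSB4X, and the other neighbours overlapped. ACTB, at rank 3 in Control, was at rank 7 in Induced. In both parental groups ACTG1 was the first and ACTB at rank 4. Parental and transgene libraries were made on different instruments with different read lengths, so a level cannot be compared between the lines.

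Whether doxycycline acted differently in the 2 lines was fitted in 1 model over 12265 genes. TMM factors were here set over all 16 libraries together, so these differences need not equal those between the per-line values above. For ACTB the difference in log2 fold change, transgene minus parental line, was -1.50 ± 0.54, for TAGLN2 -1.57 ± 0.58 and for TPM1 -1.01 ± 0.37. It was 3.12 ± 1.13 for PFN1, 0.68 ± 0.34 for CFL1, 0.39 ± 0.60 for ACTG1, 0.13 ± 0.57 for TMSB10, 0.13 ± 0.44 for MYL6 and -0.11 ± 0.83 for SRF. Without Control replicate 5 it was -1.69 ± 0.48 for ACTB, -1.75 ± 0.53 for TAGLN2, -1.13 ± 0.35 for TPM1, 4.26 ± 0.90 for PFN1 and 0.95 ± 0.43 for ACTG1, and for SRF it turned to 0.35 ± 0.77. With library totals alone it was -0.83 for ACTB, -0.85 for TAGLN2 and -0.39 for TPM1. CFL1 then had 1.25, MYL6 0.77 and TMSB10 0.66, and the median of all genes moved from -0.09 to 0.48. TMSB4X had no counts in the With Dox libraries, so a fitted difference would depend on the prior count and none is given. These differences contain the contrast on which ACTB was chosen and have no test here. The lines also differed in sequencer and in read length, and these cannot be told apart.

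The profile of ACTB over the 10 transgene libraries was set against that of 13037 other genes, by the root mean square difference of centred log2 CPM. The nearest were LRRC47 (0.0915), GSK3A (0.113), PHLDA3 (0.121), TMEM41A (0.125) and GIPC1 (0.128). Among the genes described here TAGLN2 came nearest, at rank 520 (0.309), followed by TPM1 at rank 2052 (0.471). ACTG1 was at rank 11591 (1.48) and PFN1 at rank 12984 (2.71), near the far end. These distances are descriptions over libraries that share the 2 groups.

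Of 191 other genes of the actin pathway on 12 lists, 163 were tested in the transgene line. Of these, 26 fell and 42 rose (41.7% called, against 39.8% of all genes, 19.8% lower and 20% higher), and the median log2 fold change was 0.09, against 0.04 for all genes. Without Control replicate 5, 38 fell and 58 rose, when 58.5% of all genes were called. Without any other single library, 7 to 32 fell and 20 to 48 rose, and with 1 surrogate variable 0 did either, when 1 gene of all was called. For each library left out but Control replicate 5 and Induced replicate 2, at least 1 of these counts dropped by over 1.5 times. With library totals alone 12 fell and 57 rose, since the median of all genes then moved to 0.28. In the parental line 0 of 137 tested genes of these lists passed the test by edgeR.

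Between the lines, 7 of 157 tested genes of these lists responded differently to doxycycline by the interaction term (edgeR adjusted p under 0.05), against 2.98% of all genes. TNS1, FHL2, CNN1 and FHOD1 had the lower response in the transgene line (2.2% of all genes did), and CAPZB, VASP and WASHC4 the higher (0.775%). Over all genes such calls went from 365 to 0 without Control replicate 1, so this count rests on single libraries.

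The ARP2/3 complex, which starts branched filaments, had 4 of 9 subunits higher and 1 lower. That is 55.6% called, against 39.8% of all genes (20% higher and 19.8% lower). With GC offsets 2 were higher and 0 lower, and with a library left out 2 to 6 were higher. ARPC1B rose from 52.2 ± 52.6 to 156 ± 44.6 CPM (log2 fold change 1.58 ± 0.50, edgeR adjusted p = 0.0303) and ARPC5 from 59.0 ± 29.8 to 126 ± 19.7 CPM (1.10 ± 0.28, edgeR adjusted p = 0.0178). ARPC4 fell from 102.5 ± 17.4 to 66.0 ± 14.5 CPM (-0.64 ± 0.19, edgeR adjusted p = 0.0238). Of 11 genes that cap filament ends, 5 rose and 2 fell (2 and 1 with GC offsets), which is 63.6% called. With a library left out 3 to 6 of these rose and 1 to 2 fell. CAPZB, the beta subunit of capping protein, rose from 85.1 ± 50.6 to 325 ± 136 CPM (1.93 ± 0.40), and CAPG, a gelsolin relative, fell from 45.3 ± 17.3 to 20.8 ± 2.90 CPM (-1.12 ± 0.26), both at an edgeR adjusted p of 0.0175. EPS8L2 fell from 106 ± 37.3 to 55.1 ± 13.6 CPM (-0.95 ± 0.25, edgeR adjusted p = 0.0194) and its relative EPS8, a capping protein, rose from 7.23 ± 0.870 to 16.1 ± 4.27 CPM (1.15 ± 0.21, edgeR adjusted p = 0.0175). Among 21 factors that activate ARP2/3, 6 rose and 2 fell (38.1% called, 2 to 9 and 0 to 3 with a library left out). Those that rose included NCKAP1, from 14.1 ± 9.26 to 35.03 ± 9.85 CPM, and WASF3 (log2 fold change 1.05 ± 0.33). CYFIP2 (-0.66 ± 0.22) and BRK1 (-0.47 ± 0.17) fell. The list of formins and spire, which start unbranched filaments, had 2 of 14 lower, FHOD1 (-1.07 ± 0.24) and FMNL3 (from 24.98 ± 9.08 to 12.5 ± 4.25 CPM), and 0 higher. That is 14.3% lower, against 19.8% of all genes, and with GC offsets 5 were lower.

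Relatives of the 10 genes went both ways, as did all genes, of which 20% were called higher and 19.8% lower. Of 28 other genes of monomer binding and turnover 7 rose and 3 fell (3 to 9 and 0 to 5 with a library left out). TESK2, a kinase that inactivates cofilin, rose (1.84 ± 0.37) and so did GSN, the gene of gelsolin, which severs filaments (1.81 ± 0.47), while LIMK2 (-0.65 ± 0.24) and TESK1 (-0.62 ± 0.17), 2 further cofilin kinases, fell. Of 8 other tropomyosins, calponins and transgelins, CNN1, CNN2 and TAGLN fell and CNN3 rose. CNN2 went from 134 ± 53.3 to 61.1 ± 8.48 CPM (-1.13 ± 0.25), CNN1 from 158 ± 45.9 to 75.05 ± 11.8 CPM (-1.07 ± 0.22) and CNN3 from 38.9 ± 14.5 to 243.5 ± 125.5 CPM (2.64 ± 0.51), each at an edgeR adjusted p of 0.0175. Of 2 further actins tested, ACTA2 of smooth muscle fell (-0.84 ± 0.27) and ACTBL2 rose (1.77 ± 0.43), both under 5 CPM in every group mean. Of 16 genes of non-muscle myosin II and its regulators 5 rose and 2 fell (3 to 6 and 0 to 4 with a library left out). The regulatory light chains MYL12A (1.43 ± 0.40) and MYL12B (1.20 ± 0.30) rose and MYL9 fell (-0.74 ± 0.21), as did MYLK, a kinase of these chains (-0.50 ± 0.19).

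Of 19 crosslinkers and membrane linkers 6 rose and 4 fell (52.6% called, against 39.8% of all genes). With a library left out 1 to 7 rose and 0 to 6 fell. ANLN, the gene of anillin (1.59 ± 0.37), and MARCKSL1 (1.77 ± 0.59) rose, while FLNA, the gene of filamin A, fell from 1126 ± 466 to 515 ± 142 CPM (-1.13 ± 0.30, edgeR adjusted p = 0.0187) and EZR, the gene of ezrin, from 301 ± 84.2 to 176 ± 43.97 CPM (-0.77 ± 0.24). Of 21 focal adhesion genes 5 fell, TGFB1I1 (-1.32 ± 0.35) and LIMS2 (-1.11 ± 0.28) by most, and 3 rose, among them VASP (1.47 ± 0.46) and TNS3 (1.28 ± 0.30). That is 38.1% called, and with a library left out 2 to 7 fell and 1 to 5 rose. Of 8 SRF cofactors and regulators, MRTFA fell (-0.87 ± 0.23), and ELK3 (1.05 ± 0.26) and ELK4 (1.03 ± 0.24) rose. That is 37.5% called, and 0 of the 8 fell with GC offsets. Of 6 immediate early SRF targets 2 rose, MCL1 (1.11 ± 0.26) and CCN2 (0.64 ± 0.19), and 0 fell. That is 33.3% higher, against 20% of all genes, and 1 to 5 rose with a library left out.

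**Figure D5:**
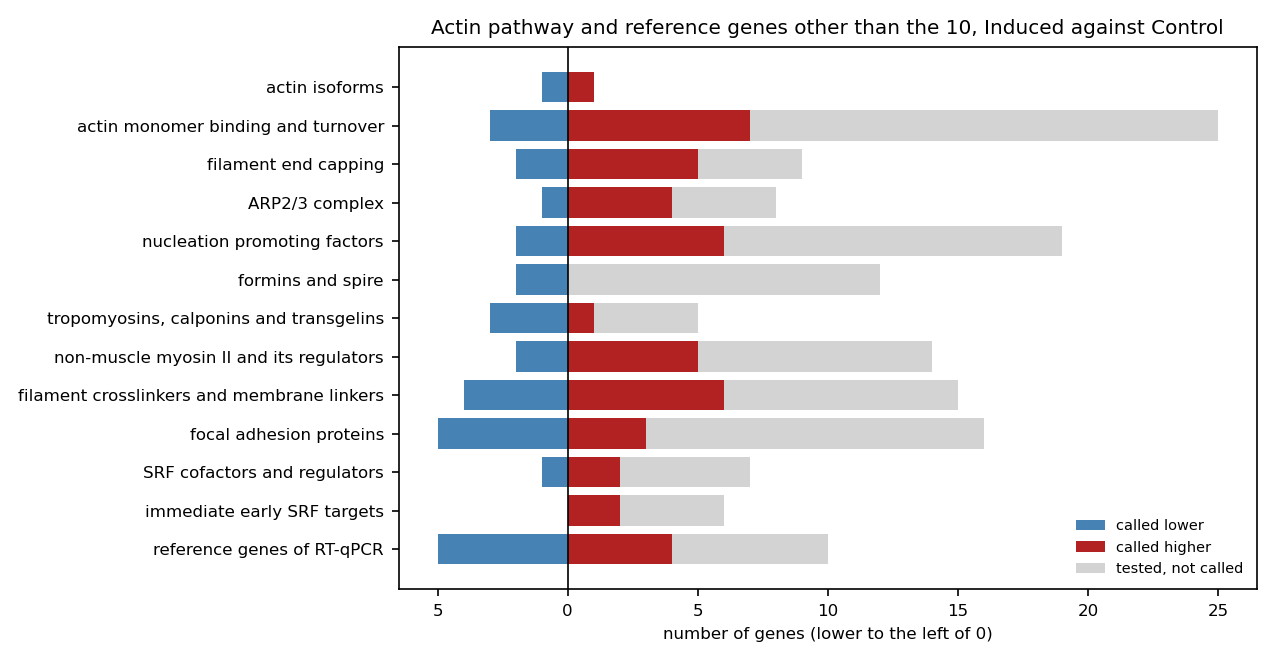
Number of genes called lower (left of 0), called higher and tested but not called in each list, Induced against Control, for genes other than the 10. Calls in both directions appear in 11 of the 13 lists; formins and spire have 2 lower and 0 higher, and immediate early SRF targets 2 higher and 0 lower.

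Since ACTB is used as a loading control, 15 other common reference genes of RT-qPCR were examined in the same fit. Of these 5 fell, 4 rose and 6 did not pass the test, so 60% were called, against 39.8% of all genes. With a library left out 3 to 6 fell and 1 to 6 rose. GAPDH, a glycolytic enzyme, fell from 6303 ± 3153 to 2630 ± 472 CPM (-1.26 ± 0.31, edgeR adjusted p = 0.0177). HPRT1, of purine salvage, rose from 11.1 ± 8.52 to 26.2 ± 6.09 CPM (1.23 ± 0.44) and TBP, the TATA-binding protein, from 6.17 ± 1.94 to 13.8 ± 4.24 CPM (1.16 ± 0.26). In parental cells 0 of 14 tested passed the test.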

How the data were processed

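Cytoplasmic RNA of 16 libraries was sequenced from its 3′ ends (QuantSeq REV). The authors deposited raw tag counts per Ensembl gene, made by the Lexogen pipeline for GRCh38, 1 table per library. The aligner and the use of strand are not given in the sources used here, so tags of overlapping opposite genes (CFL1 with SNX32 and MUS81, PFN1 with ENO3, TMSB10 with TRABD2A, MYL6 with SMARCC2, TPM1 with TPM1-AS) may be mixed. The same holds for ACTB, ACTG1, MYL6 and TPM1 with opposite genes that have no symbol. Names came from GENCODE 44, which matched 56104 of 60107 genes. The 92 spike-in entries (0 counts) and 5 summary entries were left out.

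Groups and replicate numbers follow the library labels. The study describes the transgene libraries as biological replicates and the parental ones as coming from separate cultures. All pairs within a group differed by more than sampling noise (chi-square per degree of freedom 4.55 or more). Genes with a mean normalized count above 20 were tested with edgeR 4.0.16 in R 4.3.3 (TMM per line, quasi-likelihood, Benjamini-Hochberg over all genes tested, calls under 0.05). For the difference between the lines, the TMM factors and this filter were taken over all 16 libraries together. Alternatives were DESeq2 1.42.0 (size factors, Wald test), library totals, filterByExpr, all genes unfiltered, a block for the replicate number, GC offsets (lowess span 0.5), 1 surrogate variable (sva 3.50.0) and each library left out. Permutation tests used scipy 1.17.1, and fits were tested on simulated data.

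The genes and lists were chosen with earlier results of these data known. Named from each list were up to 2 called lower and 2 called higher genes with the largest change, beside the 10 genes, RNMT, the 5 nearest profiles and tested pseudogenes. One gene that this rule takes is not reported here.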

Additional observations from a re-analysis of the deposited data

Results flagged for a closer look

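Several values stood apart from the rest of their group. Of 32 groups of 5 values examined, 7 had a highest or lowest library farther from its neighbour than Dixon's test allows at 95%, and chance flags about 1 in 20 such groups. Control replicate 5 gave 6 of the 7, which are 3330 CPM of ACTG1, 484.1 CPM of PFN1, a ratio of 7.65 ACTG1 counts per ACTB count, 0.374% of gene counts on ACTB and ACTG1, 32.27% of the 10 genes' counts on TAGLN2, and 0.6876% of gene counts on the 9 genes other than TAGLN2. These 6 values are of 1 library and share genes. The seventh was CFL1 in Induced replicate 5, at 1013 CPM.

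For 7 other actin genes and 1 reference gene the response to doxycycline differed between the transgene and the parental line by the interaction term (edgeR adjusted p under 0.05, which 365 of 12265 genes passed, 2.98%). The difference in log2 fold change was 2.15 for CAPZB, 3.22 for VASP, 1.73 for WASHC4, -1.66 for TNS1, -1.39 for FHL2, -1.71 for CNN1, -2.41 for FHOD1 and -2.06 for GUSB. FHL2 and WASHC4 were not called in the transgene line, where their log2 fold changes were 0.01 ± 0.19 and 0.58 ± 0.22. None of these genes was called in the parental line, and the lines also differed in sequencer and in read length.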

How the results depend on the processing

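In the transgene line 7 of the 10 genes kept the sign of their log2 fold change under all 19 alternatives, and MYL6, TMSB10 and SRF did not. The alternatives reuse the same libraries, and the same count was not made over all genes. With 1 surrogate variable TPM1 went to -0.03, ACTG1 to 0.12, TAGLN2 to -0.33 and PFN1 to 1.13. ACTB went to -0.51 with 1 surrogate variable and lay between -1.44 and -0.99 with a library left out. It was -0.84 with GC offsets, and -0.81 with GC offsets and the replicate block. Calls over all genes went from 5183 to 1 with 1 surrogate variable and to 3513 with GC offsets. With a library left out they lay between 1869 (without Induced replicate 1) and 7604 (without Control replicate 5). Library totals alone moved the share of calls that were higher from 50.2% to 74.1%. The actin pathway genes called lower went from 26 to 12 with library totals and 0 with 1 surrogate variable (7 to 38 with a library left out), and those called higher from 42 to 0 with 1 surrogate variable (20 to 58). Of the 43 called list genes that the naming rule takes in the transgene line none turned sign; all 43 lost the call with 1 surrogate variable, and with a library left out between 0 and 21 did. In the parental line calls went from 0 to 1 with DESeq2's Wald test, 10 with no filter and 0 to 2 with a library left out. The parental ACTB value of -0.01 turned to 0.03 with DESeq2's size factors and its Wald test, 0.02 with filterByExpr, 0.06 with no filter, 0.11 with GC offsets or 1 surrogate variable, and -0.26 to 0.31 with a library left out. TMSB10 there was -0.02 with library totals and -0.18 to 0.97 with a library left out, ACTG1 -0.00 to 0.72, MYL6 -0.96 to 0.04 and TAGLN2 -0.38 to 0.74. Genes whose response differed between the lines went from 365 to 236 with DESeq2's size factors, 1478 with its Wald test, 3 with filterByExpr, 150 with no filter, 1818 with 1 surrogate variable, and 0 to 2291 with a library left out, so the calls of the 8 such genes given above depend on the setting. The share of gene counts on the 10 genes differed by -0.211 percentage points with TMM-scaled library sizes. The cause was not tested.

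Same-numbered libraries did not all deviate together (correlations -0.246, 0.625, -0.373, -0.112 and 0.236 in the transgene line), so the numbers were not taken as pairs. With the replicate number as a block, calls were 5190 for the transgene line, 0 for parental cells and 222 for the difference between lines (166 with GC offsets), and the parental ACTB value was 0.01 (0.13 with GC offsets). Parental depth limits low genes, and TMSB4X could not be tested there.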
